A study of Bos taurus with 4 samples.

Results

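Dual-specificity phosphatases of the Dusp family that switch off MAP kinases were examined in bovine chromaffin cells after treatment with PACAP, the pituitary adenylate cyclase-activating polypeptide. Every library clone whose platform symbol was Dusp1, Dusp2, Dusp4, Dusp5, Dusp6 or Dusp8 was taken. Of these 6 symbols, 4 were held (Dusp1, Dusp4, Dusp5 and Dusp6), each by 1 clone, and all 4 clones could be tested. They stand among 11835 singly named genes and 35960 library clones, of which 35109 were tested. Dusp2 and Dusp8 were not analysed here. The chromaffin cells were treated in vitro with 100 ng/ml PACAP for 6 h at 37 C, and the RNA set against it is labelled control and carries the same repeat number, with no statement of what the control cells received. The 4 biological repeats gave 4 arrays of mouse cDNA clones, each hybridised with Cy5-labelled RNA of PACAP-treated cells and Cy3-labelled RNA of control cells. The labels give no strain, age or number of animals, and do not say whether the repeats came from separate animals or cultures, so the tests measure the spread between these arrays. They give the cell type as chromaffin cells and the tissue as brain, whereas chromaffin cells are a cell type of the adrenal medulla.

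MAP kinases such as ERK, JNK and p38 are active while a threonine and a tyrosine of their activation loop carry phosphate, and dual-specificity phosphatases remove both. Several of the genes of these phosphatases are themselves induced by the kinase they switch off, which makes a negative feedback loop. Dusp1, Dusp4 and Dusp5 are nuclear enzymes, whereas Dusp6 is cytoplasmic. Dusp5 and Dusp6 act mainly on ERK, and Dusp1 and Dusp4 also act on JNK and p38. In chromaffin cells PACAP binds a receptor coupled to cyclic AMP and calcium, and ERK is among the kinases it activates. Messenger RNA was measured here, and neither the phosphatase proteins nor the phosphorylation of their substrates.

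The Cy5 signal was more often above background than the Cy3 signal, and 1 array stood apart from the others. Between 91.9% and 98.4% of library spots exceeded 2 SD of the local background in Cy5 on the 4 arrays. In Cy3 the share was 80.9%, 53.0%, 46.0% and 98.3% on repeats 1 to 4. Across 33266 clones, which are not independent replicates, the normalised log2 ratios of repeats 1, 2 and 3 correlated at 0.219 to 0.372, and repeat 4 correlated with them at -0.125 to -0.00236. Values with and without repeat 4 are therefore given for each Dusp clone. No array had the dyes exchanged, so the dye and PACAP cannot be told apart in any ratio, nor in a mean or test over the 4 arrays. The chromaffin cell label was set beside its markers, of which 9 of 14 were measured. Of these, 9 exceeded background in Cy5 and 6 in Cy3 on at least 3 arrays. Testing itself required a signal above background in Cy5 or Cy3 on at least 3 arrays, so the Cy5 counts were nearly fixed in advance. In Cy3, 41.1% of all clones tested exceeded background on 2 or fewer arrays. Such counts therefore do not test the label, nor which other cell types were present. The catecholamine enzyme Th and the granule proteins Chga and Chgb exceeded background in both channels on all 4 arrays, as 31.3% of all clones tested did in Cy3. Slc18a1, Scg2 and Npy did so in Cy3 on 1, 2 and 2 arrays. Markers of the adrenal cortex were also above background, 7 of 7 measured in Cy5 and 6 of 7 in Cy3 on at least 3 arrays. For fibroblast markers it was 7 of 7 in both channels, and for leukocyte markers 8 of 8 in Cy5 and 6 of 8 in Cy3. Endothelial markers and Schwann and sustentacular markers each had 4 of 4 above background in Cy5 and 2 of 4 in Cy3. Over the 4 arrays the summed Cy5 signal was 21161.7 to 65243.5 for the chromaffin markers, 19555.7 to 62806.3 for the fibroblast markers, 1375.6 to 5724.0 for the leukocyte markers and 986.7 to 3432.8 for the adrenal cortex markers. In Cy3 it was 7391.4 to 76904.4, 6950.7 to 61142.0, 966.3 to 8648.8 and 1422.2 to 4471.8 in the same order. The endothelial sum was 393.4 to 1646.6 in Cy5 and 362.8 to 2033.1 in Cy3. The Schwann and sustentacular sum was 678.3 to 3331.6 in Cy5 and 735.3 to 4720.4 in Cy3. An unadjusted limma p under 0.05 was reached by 3 of the 9 chromaffin markers, all higher, and by no marker of the other cell types. These were Scg2 at 1.84 (titled patched homolog in the scanner table), Penk at 0.86 and Chgb at 0.71 on the log2 scale. All 3 had an adjusted p of 0.453 or above. Among all clones tested, 3.93% were higher and 6.46% lower at an unadjusted limma p under 0.05. Of the 9 chromaffin markers, 6 had a mean above 0, against 48.6% of all clones tested. Their median was 0.15, whereas Chga was at -0.50, Ddc at -0.36 and Slc18a1 at -0.31. The part of these cell types in the Dusp values was not tested, and in bulk RNA fewer cells of a type and less RNA per cell cannot be told apart.

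The clones of the ERK phosphatases Dusp6 and Dusp5 had a higher signal from PACAP-treated than from control cells on all 4 arrays after normalisation. Their mean ratios were 1.99-fold and 1.57-fold. The Dusp1 clone had a mean ratio of 0.984-fold with 2 arrays above and 2 below 0 on the log2 scale. The Dusp4 clone had 0.496-fold, which rested on 1 array. No Dusp clone passed the test over all clones. limma with Benjamini-Hochberg adjustment called 0 of 35109 clones (0%) at an adjusted p under 0.05, where the lowest adjusted p was 0.453 and 3648 clones (10.4%) had an unadjusted p under 0.05. Of all clones tested, 9.59% lay above 0 and 8.25% below 0 on all 4 arrays. At an unadjusted p under 0.05, 3.93% were higher and 6.46% lower with PACAP. Against the 9.59%, 2 of the 4 Dusp clones lay above 0 on every array.

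**Figure D1:**
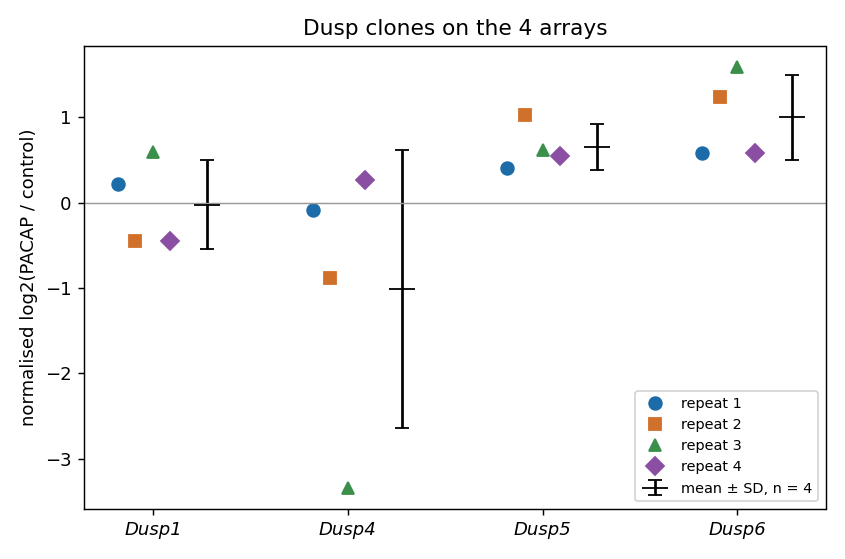
Normalised log2 ratio of PACAP over control (y axis) for the clones of Dusp1, Dusp4, Dusp5 and Dusp6 (x axis), with 1 symbol per array and the mean ± SD of 4 arrays at its right. All points of Dusp5 and Dusp6 lie above 0, those of Dusp1 lie on both sides, and the Dusp4 point of repeat 3 at -3.34 lies far below its other 3 points.

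Dusp6, the cytoplasmic ERK phosphatase, had the highest mean of the 4 clones. Its clone, AI844200, is described in the scanner table as RIKEN cDNA 1300019I03 gene and was printed in block 13. The background-subtracted Cy5 signal was 584.2, 269.3, 129.4 and 337.3 on repeats 1 to 4, and the Cy3 signal was 267.3, 113.5, 60.5 and 507.6. On the first 3 arrays the PACAP channel was thus the brighter of the pair, and on repeat 4 the control channel was, before normalisation. The median library spot on repeat 4 was also brighter in Cy3 than in Cy5, at 548.0 against 248.2. Divided by the median library signal of its own channel, Dusp6 was 1.45, 1.14, 1.30 and 1.36 in Cy5 and 0.872, 0.550, 0.468 and 0.926 in Cy3. On this scale the PACAP value lay above the control value on every array, and the ranges of both channels did not overlap. How often such a lack of overlap occurs among all clones was not counted. The normalised log2 ratio was 0.58, 1.23, 1.59 and 0.58, with a mean of 1.00 ± 0.50 (SD, n = 4). Its 95% interval was 0.37 to 1.63, or 1.29- to 3.09-fold. limma gave an unadjusted p of 0.00647 and an adjusted p of 0.453, and the clone was number 432 of 35109 by p. An exact two-sided sign permutation test of the 4 values gave p = 0.13, the smallest that 4 arrays allow. The control signal was above 2 background SD on 2 of the 4 arrays, as for Dusp1 and Dusp4. Of all clones tested, 41.1% exceeded it on 2 or fewer arrays. The Dusp6 control signal was 1.60 SD on repeat 2 and 0.992 SD on repeat 3, the same arrays that had the 2 highest ratios. Without repeat 4 the mean was 1.13, with an adjusted limma p over all clones that was also above 0.05.

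Dusp5, the nuclear ERK phosphatase, was the most evenly measured of the clones. Its clone, AW123345, is described only as an EST and was printed in block 6. Its Cy5 signal was 720.3, 547.3, 202.4 and 457.6 on repeats 1 to 4, and its Cy3 signal was 350.2, 173.0, 128.6 and 718.4. As with Dusp6, the control channel was the brighter one on repeat 4 alone. Relative to the median library signal of each channel, Dusp5 was 1.79, 2.32, 2.03 and 1.84 in Cy5 and 1.14, 0.838, 0.994 and 1.31 in Cy3. The channels did not overlap, a trait whose share among all clones was not counted. Dusp5 was the only one of the 4 clones whose control signal exceeded 2 background SD on all 4 arrays (5.58, 2.73, 2.97 and 18.0 SD), which held for 31.3% of all clones tested. The normalised log2 ratio was 0.41, 1.03, 0.62 and 0.55, with a mean of 0.65 ± 0.27 (SD, n = 4) and a 95% interval of 0.09 to 1.21, or 1.07- to 2.31-fold. An SD smaller than this was found for 12.2% of clones. limma gave an unadjusted p of 0.0278 and an adjusted p of 0.453, and the exact sign permutation test gave p = 0.13. Without repeat 4 the mean was 0.68. The unadjusted limma p was above 0.05 whichever array was left out, from 0.0502 without repeat 3 to 0.0885 without repeat 2.

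Dusp1, an early-induced nuclear phosphatase of ERK, JNK and p38, had no common direction across the arrays. Its clone, AW491684, was printed in block 16 and carries the title protein tyrosine phosphatase, non-receptor type 16, an older name of the same gene. The Cy5 signal was 550.4, 372.0, 84.5 and 210.5 and the Cy3 signal 319.5, 307.8, 76.9 and 642.2 on repeats 1 to 4. The control signal was above 2 background SD on repeats 1 and 4 and below it on repeats 2 and 3, where it was 1.49 and 1.17 SD. Relative to the library median, Dusp1 was 1.37, 1.58, 0.846 and 0.848 in Cy5 and 1.04, 1.49, 0.594 and 1.17 in Cy3, so the channels overlapped. The normalised log2 ratio was 0.22, -0.45, 0.59 and -0.45, with a mean of -0.02 ± 0.52 (SD, n = 4). The 95% interval of -0.66 to 0.61 reaches from 0.632- to 1.53-fold, so a change within that interval was not excluded by the 4 arrays. limma gave an unadjusted p of 0.935 and an adjusted p of 0.979. The sign of this mean turned without repeat 2 or without repeat 4 (0.12 in both cases) and with loess fitted per print block (0.14).

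Dusp4, a nuclear phosphatase related to Dusp1, had the lowest mean, and 1 array carried it. Its clone, AI844617, is described as RIKEN cDNA 2700078F24 gene and was printed in block 36. The Cy5 signal was 143.2, 70.5, 114.6 and 99.3 on repeats 1 to 4, whereas the Cy3 signal was 108.5, 106.2, 734.8 and 198.7. Relative to the library median, the Cy3 value was 0.354, 0.515, 5.68 and 0.363, so repeat 3 lay far above the other arrays. The Cy5 value was 0.356, 0.299, 1.15 and 0.400, again highest on repeat 3. The normalised log2 ratio was -0.09, -0.89, -3.34 and 0.27, with a mean of -1.01 ± 1.62 (SD, n = 4), and only 2.09% of clones had a larger SD. limma gave a 95% interval of -2.26 to 0.23, an unadjusted p of 0.0983 and an adjusted p of 0.519, and the exact sign permutation test gave p = 0.375. The mean was -0.24 without repeat 3 and -1.44 without repeat 4, where the unadjusted limma p was 0.0408.

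The spots of Dusp4 also differed from those of the other Dusp clones in the scanner's own measures. Their deposited quality score was 0 on all 4 arrays, against 1 on every array for Dusp5, 0.3 to 1 for Dusp1 and 0.7 to 1 for Dusp6. Their area was 80, 67, 16 and 15 pixels on repeats 1 to 4, against 111 to 128 pixels for the other 3 clones on any array. Spots under 60 pixels made up 12.8% of those on repeat 3 and 29.0% on repeat 4. The Dusp4 control signal was below 2 background SD on repeats 1 and 2, at 1.16 and 0.649 SD. The part of spot size and quality in the Dusp4 ratio was not tested beyond leaving out small spots, which gave a mean of -0.49 over the 2 arrays left.

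**Figure D2:**
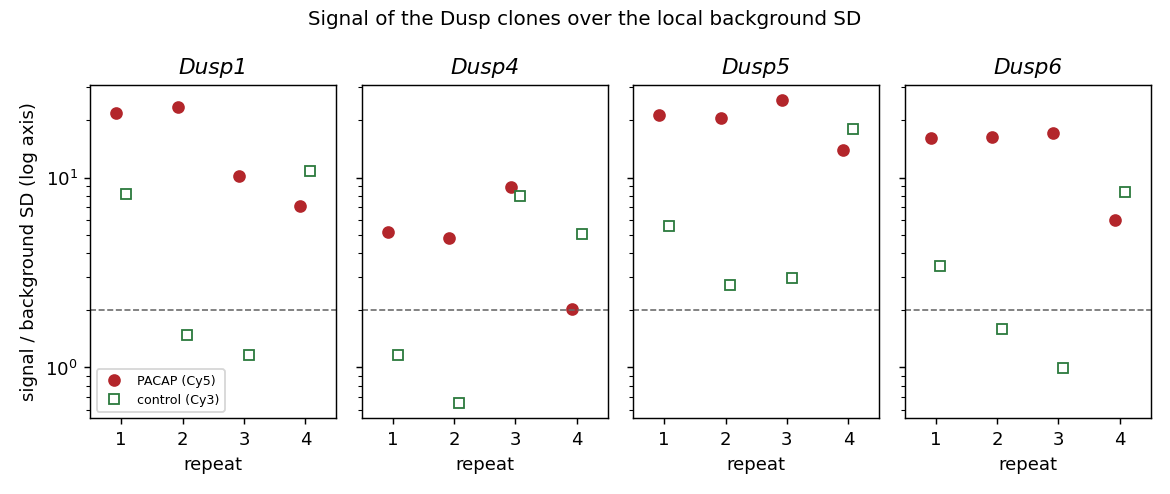
Background-subtracted signal over the SD of the local background (y axis, log scale) for each Dusp clone on repeats 1 to 4 (x axis), with filled circles for PACAP in Cy5 and open squares for control in Cy3; the dashed line marks 2 SD. PACAP circles lie above the line throughout, from 2.04 SD for Dusp4 on repeat 4 to 25.6 SD for Dusp5 on repeat 3, whereas Dusp5 alone has every control square above it.

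The 4 clones were compared with each other on the same arrays, which gave 6 pairs. Dusp6 lay above Dusp5 on all 4 arrays, by 0.18, 0.20, 0.97 and 0.03 log2 units on repeats 1 to 4. Dusp5 minus Dusp6 was -0.35 ± 0.42 (SD, n = 4), with a 95% interval of -1.02 to 0.33. It was -0.14 without repeat 3, where the Dusp6 control signal was 0.992 SD, and -0.044 with median centring in place of loess (exact permutation p = 0.63). Both ERK phosphatases lay above Dusp1 on all 4 arrays. Dusp1 minus Dusp6 was -1.02 ± 0.54 (SD, n = 4; interval -1.88 to -0.16) and Dusp1 minus Dusp5 was -0.67 ± 0.69 (interval -1.77 to 0.42). Dusp4 also lay below both of them on all 4 arrays, with Dusp4 minus Dusp6 at -2.01 ± 2.09 (interval -5.34 to 1.32) and Dusp4 minus Dusp5 at -1.66 ± 1.69 (interval -4.35 to 1.03). Dusp1 minus Dusp4 was 0.99 ± 2.03 (interval -2.24 to 4.22), positive on 3 of 4 arrays. Without repeat 3 the differences that involve Dusp4 shrank: Dusp1 minus Dusp4 was 0.0075, Dusp4 minus Dusp6 was -1.04 and Dusp4 minus Dusp5 was -0.90. Dusp1 minus Dusp5 was -0.40 without repeat 2. An exact two-sided sign permutation test gave p = 0.13 for each of the first 5 pairs (0.15 after Benjamini-Hochberg adjustment over the 6 pairs) and p = 0.5 for the last. As the exact test cannot go below p = 0.13 with 4 arrays, no pair could pass 0.05. The order of the means was Dusp6, Dusp5, Dusp1 and Dusp4, and the interval of the difference between each pair of neighbours in it includes 0.

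Under 15 other ways of processing the same arrays, the mean of Dusp6 lay above that of Dusp5, and both above 0, wherever both were tested. The Dusp6 mean ranged from 0.44 to 1.77 and was positive in 15 of 15 settings that tested it, the reported one included, with an unadjusted p under 0.05 in 13. The Dusp5 mean ranged from 0.39 to 0.73 and was positive in 16 of 16, with an unadjusted p under 0.05 in 8. The Dusp4 mean was negative in 15 of 15 but ranged from -3.54 to -0.24. The Dusp1 mean ranged from -0.42 to 0.14. No setting gave a Dusp clone an adjusted p under 0.05. In the setting with the authors' deposited log2 ratios, these were centred on the median of each array, which was 4.77, 5.56, 4.31 and -0.38 on repeats 1 to 4 before centring. As deposited and not centred, the means were 3.14 for Dusp1, 0.02 for Dusp4, 4.24 for Dusp5 and 5.33 for Dusp6, so the negative Dusp4 mean of that setting, -3.54, is relative to the array medians. After this centring the median over clones of their mean ratio lay 0.27 lower than in the reported setting, and with the deposited calibrated ratios, which were not centred, 0.30 lower. Relative to that median, Dusp5 was 0.96 and 0.70 and Dusp6 2.05 and 0.75 in those 2 settings, and Dusp1 was -0.14 and -0.08. The deposited log2 ratios matched values with the local background taken off a second time and floored at 1. On repeats 1 to 3 the Dusp6 Cy3 signal (267.3, 113.5 and 60.5) lay below that background (376.3, 262.7 and 194.3). The Dusp6 values of 1.77 and 2.05 thus rest on floored control values on these arrays. Those of Dusp5 and Dusp1 did so on repeats 2 and 3, and those of Dusp4 on repeats 1 and 2. On repeat 4 the Dusp4 Cy5 signal (99.3) lay below its background (144.5), so that deposited value rests on a floored PACAP channel. On repeat 2 the Dusp4 Cy5 signal lay just above its background, at 70.5 against 66.3.

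**Figure D3:**
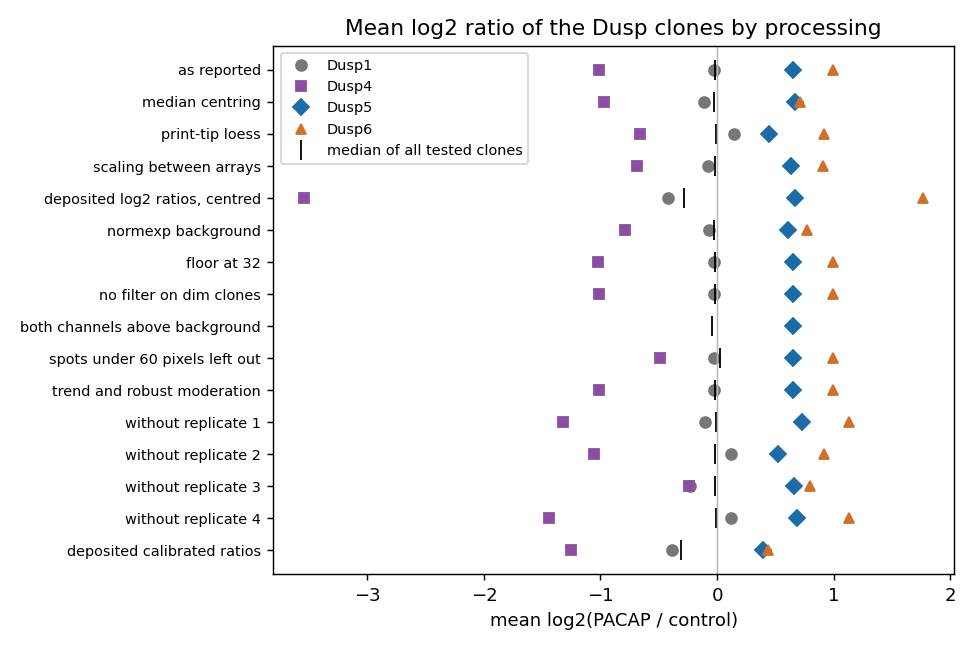
Mean log2 ratio of PACAP over control (x axis) of the 4 Dusp clones under each way of processing (y axis), with a vertical bar at the median of all tested clones and the deposited log2 ratios centred on each array's median. Dusp5 and Dusp6 lie right of 0 in every row that shows them, Dusp4 left of 0 from -3.54 to -0.24, and Dusp1 close to the bar; with both channels required above background, Dusp5 alone was tested.

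The files also held 14 other genes with a Dusp symbol, on 23 clones that were all tested. With PACAP, 20 of the 23 had a mean ratio above 0 and 3 below, where 48.6% of all clones tested had a mean above 0. Clones of the same gene are not independent. The median log2 ratio was 0.20 (range -1.87 to 0.87), against -0.01 for all clones. Of the 23, 6 lay above 0 and 1 below 0 on all 4 arrays, against the 9.59% and 8.25% of all clones. The wider list of other phosphatases includes these 14 genes and is not independent of them. With a gene represented by its brightest tested clone, 21 of 27 listed genes were measured, 15 above and 6 below 0. Its median was again 0.20, the value of the same Dusp28 clone. An unadjusted p under 0.05 was reached by 1 higher and 1 lower gene of the 21, near the 3.93% and 6.46% of all clones. With the deposited calibrated ratios the median of that list was -0.02, against -0.31 for all clones. Clones of 1 gene did not always point the same way: of 7 genes with several clones, 4 had all their clones on 1 side of 0. Clone titles contradict the symbol for a clone of Dusp3, of Dusp11 and of Dusp22.

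Dusp16, a phosphatase of JNK and p38, had the highest ratio among these, at 0.87 ± 0.74 (SD, n = 4), above 0 on 4 of 4 arrays, from 0.24 to 1.86. Its unadjusted limma p was 0.0263 and its adjusted p 0.453. Its control channel exceeded 2 background SD on 2 of 4 arrays, where 41.1% of all clones tested did so on 2 or fewer. Its mean was 0.54 without repeat 3 and 0.18 with the deposited, centred log2 ratios. The brightest of 3 clones of Dusp26, a phosphatase expressed in neuroendocrine tissue, was at 0.60 ± 0.44 (SD, n = 4) on 4 of 4 arrays, with an adjusted limma p of 0.479; its other clones, AU016144 and BE953101, were at 0.15 and 0.02. Dusp19, an atypical member, had the lowest clone, C79103, at -1.87 ± 1.20 (SD, n = 3), whereas its other clone, BF465950, was at 0.24. C79103 was -1.02, -1.36 and -3.24 on the 3 arrays that measured it, with a mean of -1.19 without repeat 3, and its adjusted limma p was 0.453. The remaining classical MAP kinase phosphatases, singled out after their values were seen, had smaller ratios. Dusp7 was at 0.11 ± 0.52 and 0.26 ± 0.27 on its clones AI838982 and AW558272, Dusp9 at 0.37 ± 0.35 on 4 of 4 arrays, and Dusp10 at 0.14 ± 0.52. The mean of Dusp10 turned to -0.09 without repeat 3, and that of the first Dusp7 clone to -0.10 without repeat 2, and the mean of Dusp9 was 0.21 without repeat 3.

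**Figure D4:**
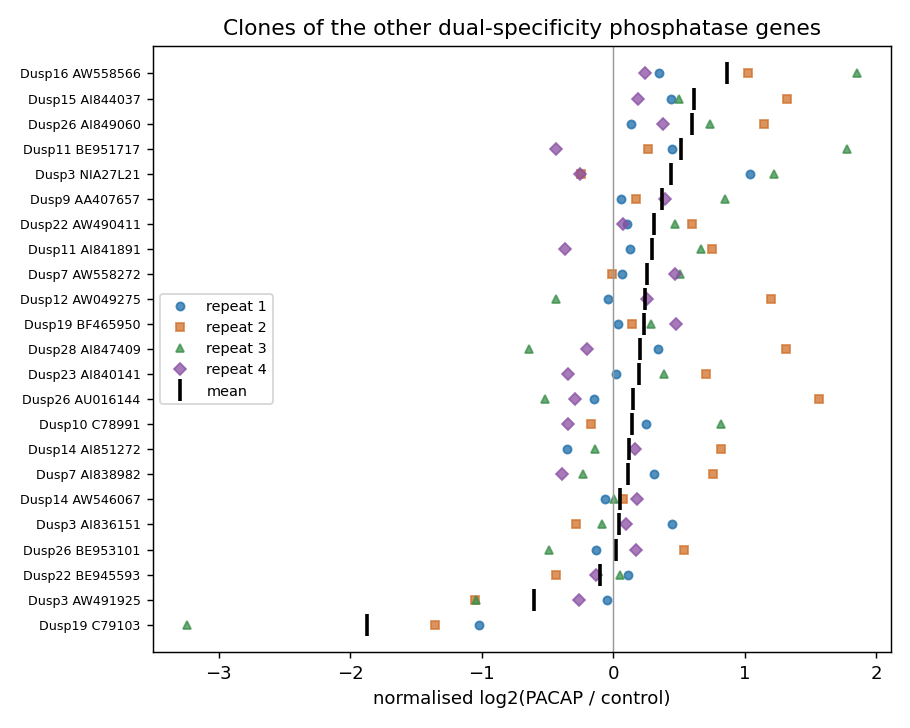
Normalised log2 ratio of PACAP over control (x axis) of the 23 clones of 14 other Dusp genes (y axis, sorted by mean), with 1 symbol per array and a black bar at the mean. Means run from 0.87 for Dusp16 to -1.87 for the Dusp19 clone C79103, and 20 of 23 lie above 0, against 48.6% of all clones tested.

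Genes of the pathways that the phosphatases act on were read from lists chosen with earlier results of these data known, with a gene represented by its brightest tested clone. Beside the counts below, 48.6% of all clones tested had a mean above 0. In the ERK cascade 22 of 33 listed genes were measured, 10 above and 12 below 0, with a median log2 ratio of -0.03. Unadjusted p under 0.05 was reached by 2, both higher, against 3.93% of all clones. These were Rap1b at 1.05 ± 0.35 (SD, n = 4) and Rap1a at 0.76 ± 0.52 (SD, n = 4), small GTPases that couple cyclic AMP to ERK. For both the title in the scanner table names another gene, a ubiquitin-like activating enzyme subunit for Rap1b and casein alpha for Rap1a, and 2 of 4 Rap1a clones were above 0. The kinase Braf was at 0.51 ± 0.18 (SD, n = 4) on its brightest clone, above 0 on 4 of 4 arrays, but only 2 of its 8 clones had a mean above 0. In the JNK and p38 cascades 20 of 24 genes were measured, 10 above and 10 below 0, with a median of 0.004 and no unadjusted p under 0.05. The 3 with the smallest p were the JNK genes Mapk10 at -0.61 ± 0.87 and Mapk8 at 0.44 ± 0.57, and the upstream kinase Map3k12 at 0.42 ± 0.49 (SD, n = 4). Each lay closer to 0 without 1 array: Mapk10 was -0.21 without repeat 2, Mapk8 was 0.17 without repeat 3 and Map3k12 was 0.20 without repeat 1. Of 4 clones each, 2 were above 0 for Mapk10, 3 for Mapk8 and 1 for Map3k12. The title of the brightest Mapk10 clone in the scanner table does not name a JNK.

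Among inhibitors that also feed back on ERK signalling, 16 of 20 listed genes were measured, 9 above and 7 below 0, with a median of 0.05. Unadjusted p under 0.05 was reached by 1 higher and 2 lower genes of the 16, against 3.93% and 6.46% of all clones. Errfi1, an inhibitor of the EGF receptor, was at 0.56 ± 0.18 (SD, n = 4) on 4 of 4 arrays. Lrig1, which limits growth factor receptors, was at -0.77 ± 0.47 (SD, n = 4), below 0 on 4 of 4 arrays. Spry3, a Sprouty protein, was at -1.22 ± 0.63 (SD, n = 3), with its control signal above background on 1 array. Among transcription factors and early genes downstream of ERK, 35 of 39 were measured, 22 above and 13 below 0, with a median of 0.08. Unadjusted p under 0.05 was reached by 2, both higher, against 3.93% of all clones. Ets2, a transcription factor phosphorylated by ERK, was at 1.61 ± 0.97 (SD, n = 4) on 4 of 4 arrays, with its control signal over 2 background SD on 2 of them, and both its clones were above 0. Crem, which encodes cyclic AMP-responsive activators and repressors, was at 1.44 ± 0.35 (SD, n = 4) on 4 of 4 arrays, with its control signal over 2 background SD on 3, and both its clones were above 0. Fosl1, a Fos family member, was at 0.55 ± 0.35 (SD, n = 4) on 4 of 4 arrays. With median centring in place of loess the list medians were 0.20 for the ERK cascade, -0.14 for the JNK and p38 cascades, 0.29 for the feedback inhibitors and 0.37 for the downstream genes, so the sign turned for the first 2. No gene of any of these lists passed an adjusted limma p of 0.05, the smallest being 0.453.

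**Figure D5:**
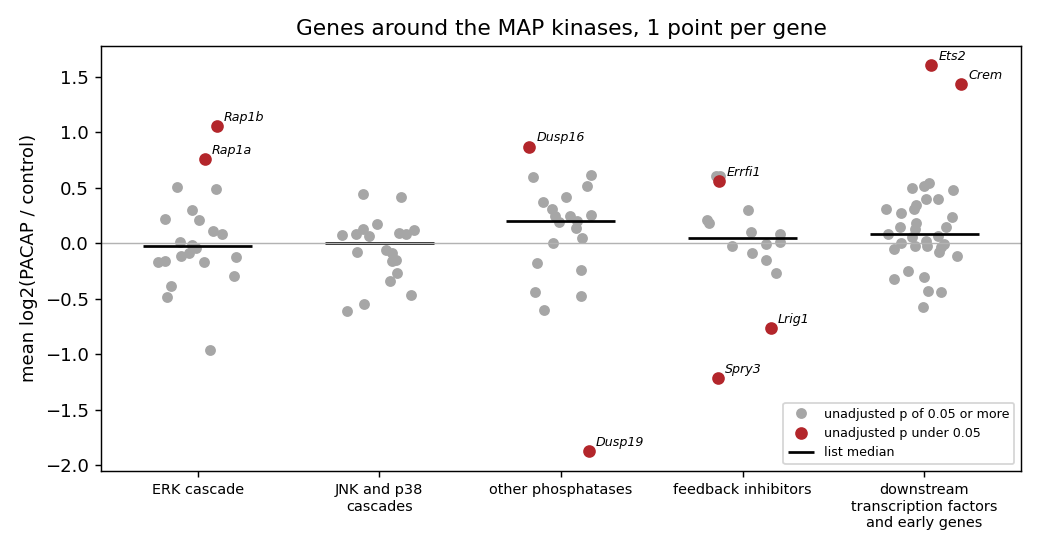
Mean log2 ratio of PACAP over control (y axis) for each measured gene of 5 lists around the MAP kinases (x axis), 1 point per gene, with a horizontal bar at the list median and genes of an unadjusted limma p under 0.05 in red and named. List medians lie between -0.03 for the ERK cascade and 0.20 for the other phosphatases, and no gene passed an adjusted p of 0.05.

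The genes whose log2 ratios over the 4 arrays lay closest to each Dusp gene were found among 11361 genes, by the root mean square difference over the arrays. For Dusp6 these were Rab18, a small GTPase, at 0.12 log2 units, Vwa3a at 0.14 and Ncaph2, a condensin subunit, at 0.16, and 22 genes lay within 0.25. Dusp5 was closest to 1810034E14Rik at 0.08, the nucleosome-binding protein Hmgn1 at 0.09 and the glycolytic enzyme Tpi1 at 0.09, with 152 genes within 0.25. Dusp1 was closest to Grtp1 at 0.05, Cpne5 at 0.06 and Dcaf15 at 0.06, with 214 genes within 0.25. Dusp4 had 3 genes within 0.25, which were Tsc22d3 at 0.17, Ptx3 at 0.24 and Ttll4 at 0.24. Each of these 3 had its lowest ratio on repeat 3, at -3.23, -3.28 and -3.15, as Dusp4 did at -3.34. With 4 arrays, such likeness is a description of these libraries only.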

How the data were processed

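Signal intensities per spot were deposited by the authors as linear means with the local background already taken off, as checked from the values, beside the background and its SD, per the file headers. The deposited ratio is Cy5 over Cy3 divided by 1 calibration factor per array (1.69, 1.97, 1.53 and 0.432 on repeats 1 to 4), and the deposited quality score runs from 0 to 1, per the file headers. The authors' deposited series table holds log2 ratios whose direction was found from the values. They matched recomputed ratios in which the background was taken off once more, with a floor of 1. The image analysis program and the animals behind each repeat are not given in the sources used here.

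Here, a global loess curve was fitted per array to log2 of Cy5 over Cy3 with limma 3.58.1 under R 4.3.3, with no further background correction. Blanks, spots from other plates and those with zero area had weight 0. Repeat spots of a clone were averaged. Testing required a signal of over 2 background SD, in Cy5 or Cy3, on 3 or more of the 4 arrays. The 4 ratios per clone were tested against 0 with lmFit and eBayes, with Benjamini-Hochberg adjustment over all 35109 clones and a threshold of 0.05. Pairs of Dusp clones were tested by exact sign permutation in Python 3.11.15 (numpy 2.4.6, pandas 2.3.3, scipy 1.17.1; plots with matplotlib 3.10.9).

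Symbols came from the platform annotation, joined to spots by plate position where the median difference from recomputed values was under 0.1 log2 units (35695 of 35873 entries). Mouse clones were hybridised with bovine RNA. Each of the 6 symbols has a bovine gene in RefSeq. The precision is limited by the number of arrays.

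Every Dusp clone of the rule is described; of each of the 5 lists, the 3 genes with the smallest p are named, and further names were chosen after their values were seen. The members, lists and tests were chosen with earlier results of these data known. Alternatives were median centring, loess per print block, scaling between arrays, the deposited log2 ratios centred on the median of each array, normexp, a floor of 32, other filters on dim clones and small spots, trended and robust moderation, each array left out, and the deposited calibrated ratios, which were added after seeing the data.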

Additional observations from a re-analysis of the deposited data

Results flagged for a closer look

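In the PACAP channel, the Dusp4 clone was 1.15 times the library median on repeat 3, whereas the other 3 arrays lay between 0.299 and 0.400. In the control channel, the same clone was 5.68 times the library median on repeat 3, whereas the remaining arrays lay between 0.354 and 0.515. In both cases the gap to the nearest array, divided by the whole range, passed Dixon's 95% critical value for 4 samples. Of 43 values examined in this way, 2 stood apart, and chance alone sets about 1 in 20 such groups apart.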

How the results depend on the processing

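Of the 4 Dusp clones, Dusp5, Dusp6 and Dusp4 kept their direction in every setting that tested them; the deposited log2 ratios enter as centred on each array's median, without which the Dusp4 mean was 0.02. The Dusp1 mean turned positive with loess per print block (0.14), and ranged from -0.23 to 0.12 when each array was left out. Requiring both channels above background left Dusp1, Dusp4 and Dusp6 untested. The number of clones at an unadjusted p under 0.05, 3648 as reported, was 6100 with median centring, 2345 with both channels above background, 912 with trended and robust moderation, 6758 with the deposited calibrated ratios and 1834 to 5148 with each array left out (1834 without repeat 3, 2145 without repeat 2). The share of these clones that were higher was 37.8% as reported, 9.39% with the deposited, centred log2 ratios, 18.1% with the calibrated ratios, 48.7% without spots under 60 pixels and 99.7% with trended and robust moderation (909 higher, 3 lower). The deposited, centred log2 ratios gave 371 clones at an adjusted p under 0.05, all lower relative to the array medians and none of them a Dusp clone described here, and every other setting gave 0. With the deposited, centred log2 ratios the mean was -0.77 for Rap1b, -2.06 for Map3k12, -1.68 for Errfi1, -0.21 for the Dusp7 clone AI838982, -0.89 for AW558272 and -0.90 for the Dusp26 clone AU016144. With the calibrated ratios it was -0.48 for AI838982, -0.14 for AW558272, -0.31 for the Dusp19 clone BF465950, -0.29 for AU016144 and -0.55 for the Dusp26 clone BE953101. With median centring it was -0.20 for AI838982, -0.033 for BF465950, -0.0084 for AU016144 and -0.27 for BE953101, and AU016144 was -0.071 with loess per print block. Leaving out each array gave -0.10 to 0.28 for AI838982, -0.085 to 0.30 for Dusp10, -0.32 to 0.38 for AU016144 and -0.15 to 0.19 for BE953101. The cause of these changes was not tested, the second background subtraction and floor of 1 in the deposited log2 ratios included. No paired analysis was possible because the labels give replicate numbers to 1 group of ratios only, each of which already sets treated against control RNA of the same number. Averaging clones of a gene could not change the pairs, as each Dusp gene has 1 clone.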
